A study of Mus musculus with 18 samples.

Results

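Naive CD4+ T cells of WT mice were compared between 4 weeks and 1 week of tamoxifen, with 3 arrays at each time, which are 6 of the 18 arrays of the series. The members were the arrays whose titles carry the WT name at the 2 times, and all autosomal genes measured on them were compared. In the titles the WT mice are ERCre- LAT f/-, that is, without the tamoxifen-inducible Cre recombinase and with 1 floxed, functional Lat allele opposite a null allele. The series text instead describes all mice as carrying the inducible Cre, and the files do not settle which holds. The groups set beside them are LAT KO (ERCre+ LAT f/-) and Y136F (ERCre+ LAT f/m, with m the allele that carries the point mutation), each with 3 mice at 1 and 3 at 4 weeks of tamoxifen. All 18 mice are labelled as C57BL/6, all received tamoxifen, and the cells were sorted from spleen as CD44low CD4+. Mouse ages are not given in the labels, so time on tamoxifen cannot be told apart from age or from any other difference between the mice taken at each time.

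LAT is a membrane adaptor that becomes phosphorylated when the T cell receptor (TCR) is engaged and then holds phospholipase C-gamma 1 and other signalling proteins at the receptor. Resting naive T cells also receive weak, continuous signals through the TCR and through receptors for cytokines such as interleukin 7 and type I interferon, which keep the cells alive and set the level of many transcripts. Tamoxifen binds oestrogen receptors and, in mice with the inducible Cre, moves the recombinase into the nucleus. By their titles, the WT mice lack the recombinase, so the comparison shows how the same sorted population differed between the times with no intended change in Lat.

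RNA from each mouse was labelled with Cy3 and hybridised to 1 Agilent single-colour array. Values below are scaled log2 signals: log2 of the processed intensity minus the 75th percentile of that array, so that 0 is the 75th percentile and each step of 1 is a 2-fold step in signal. The 75th percentile of the 6 WT arrays lay between 1124 and 1648 intensity units. The share of spots well above background was 84.2% in replicate 1 of 1 week, 95.6% in replicate 2 and 96.5% in replicate 3, and 95.1%, 95.9% and 94.5% in replicates 1 to 3 of 4 weeks. The first of these arrays thus stood apart from the other 5. The 6 arrays came from 5 slides, and 1 slide held an array of each time. By label, all 4-week mice were male, while replicates 1 and 2 of 1 week were female and replicate 3 was male. Y-linked genes went with these labels on all 6 arrays. Xist, the RNA of the inactive X chromosome of females, was at 0.50 and -0.19 in the female mice and at -7.03, -7.37 and -7.99 in the 4-week males, but at -3.98 in the male replicate 3 of 1 week. A LAT KO array of the same slide, labelled male, had a similar Xist level of -3.74. Male mice alone leave replicate 3 of 1 week against the 3 arrays of 4 weeks, so values within male mice rest on that array and are given for size only.

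The CD4 T cell identity of the libraries was checked against 12 markers, all of them well above background on all 6 arrays. Their mean level was 3.56 to 3.71 at 1 week and 3.64 to 3.86 at 4 weeks, so the times overlapped. Lat itself was at 2.75, 3.47 and 3.37 at 1 week and at 3.29, 3.63 and 3.85 at 4 weeks, with overlapping groups. The difference was 0.40 ± 0.23 (SE, n = 3 per time; limma adjusted p = 0.315), and was 0.22 in male mice alone. Each SE here and below comes from the limma model of all 18 arrays and is not the spread of the WT arrays alone. Irf4, a transcription factor induced by TCR signals that the study followed, differed by 0.17 ± 0.23 (limma adjusted p = 0.637). Nr4a1, which encodes the immediate TCR target Nur77, was at -0.20, -0.12 and -0.03 at 1 week and at -0.69, -0.36 and -0.57 at 4 weeks. Every 4-week array was below every 1-week array, and the difference of -0.43 ± 0.15 had a limma adjusted p of 0.193.

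The difference between the times depended on how bright a gene was. When the 15816 autosomal genes measured on all 6 arrays were split by mean level into 5 bins of equal size, the median 4-week minus 1-week difference was 0.59 in the dimmest bin. It was 0.36 and 0.16 in the next bins and -0.01 in each of the 2 brightest. A single array stood out: replicate 1 of 1 week lay a median of -1.20 from the gene mean in the dimmest bin, whereas the other 5 arrays lay between -0.01 and 0.45. Over all autosomal genes the median difference was 0.205. Over all tested genes it was 0.207, and 0.07 without that array, 0.06 after quantile normalization and 0.02 in the authors' value table. Differences below are as measured, and a gene or list is to be read against this shift of the median.

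**Figure D1:**
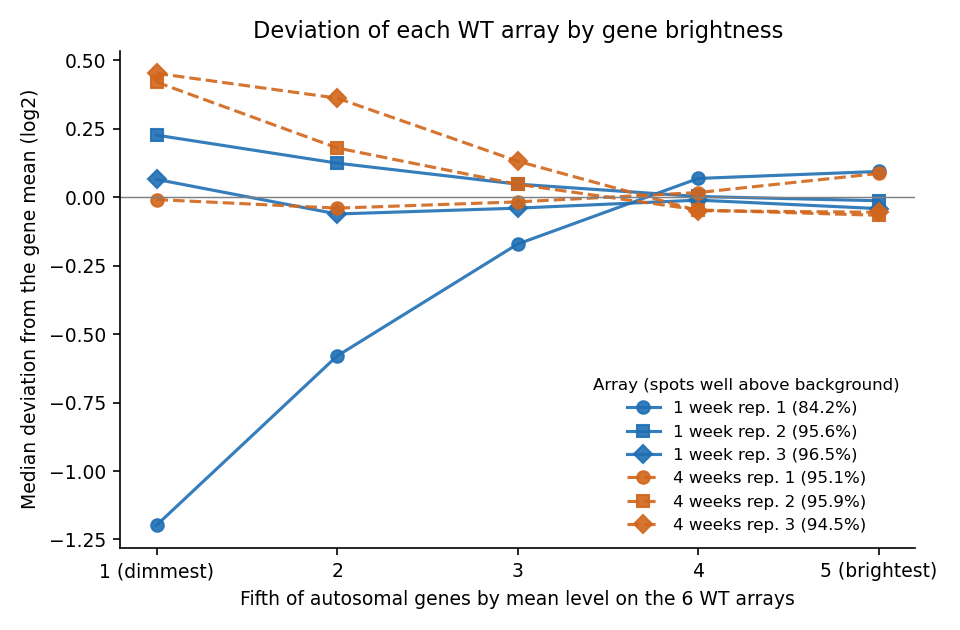
Median deviation (log2) of each WT array from the mean of the 6 arrays, by brightness bin of the autosomal genes; blue lines are 1 week and orange lines 4 weeks, with the percent of spots well above background in the legend. Replicate 1 of 1 week, at 84.2%, drops to -1.20 in the dimmest bin, and all arrays lie between -0.07 and 0.09 in the brightest.

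No gene passed the threshold of 0.05. Of 31557 genes and unnamed sequences tested, 16403 of them named autosomal genes, 0 were called in either direction (limma, Benjamini-Hochberg; 0% called), and the smallest adjusted p was 0.0875. At an unadjusted p under 0.05, 2049 autosomal genes were higher at 4 weeks (12.5%) and 1284 lower (7.83%), 20.3% in all. Of everything tested, 10.8% was higher and 8.6% lower by that measure, 19.4% in all. All 4-week arrays lay above all 1-week arrays for 1394 autosomal genes (8.81% of those measured on all 6) and below them for 1600 (10.1%). The difference was positive for 66.5% of these genes and negative for 33.5%. Differences of at least 2-fold were split otherwise: among the genes with non-overlapping times, 208 were at least 2-fold higher and 5 at least 2-fold lower. Counts of list members below are to be read against the shares over all autosomal genes. Olfactory receptor genes, which T cells are not known to use, were above on all arrays in 101 of 846 cases and below in 1, with a median of 0.78; they were looked at after the data were seen. The number of calls depended on the treatment of array quality: 1035 genes passed when limma estimated a weight for each array, where replicate 1 of 1 week had a weight of 0.24 and replicate 2 of 4 weeks a weight of 2.75.

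**Figure D2:**
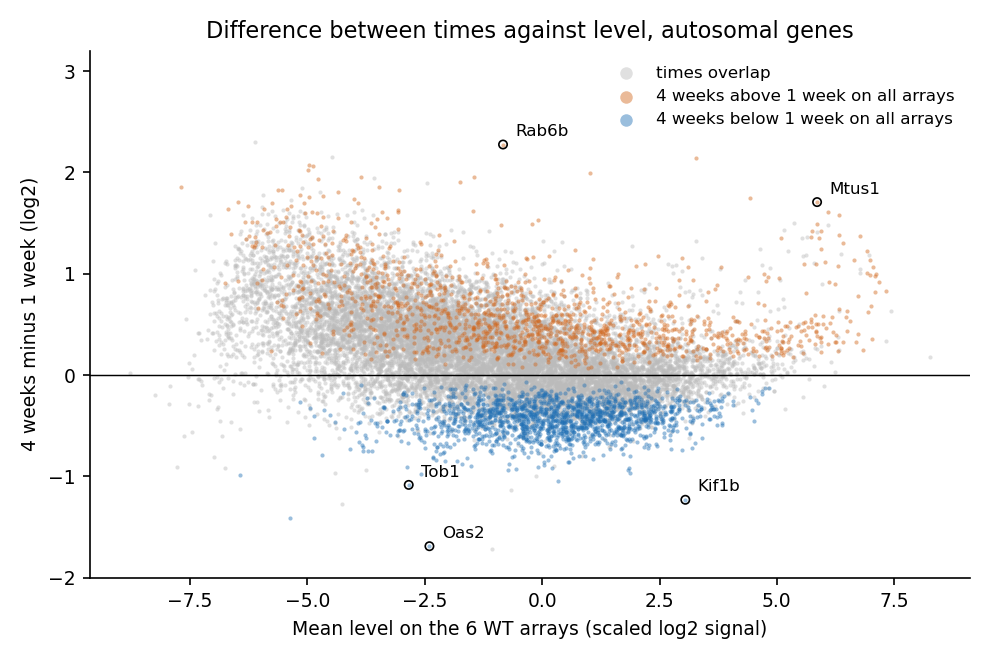
Difference between times (log2, 4 weeks minus 1 week) against the mean level (scaled log2 signal) of each autosomal gene measured on all 6 WT arrays. Orange and blue points are genes whose times do not overlap, 1394 higher and 1600 lower, and grey points are genes whose times overlap; dim genes lie mostly above 0.

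Lower transcripts at 4 weeks with non-overlapping times and a difference of 2-fold or more were Kif1b, Tob1, Rcor1, Oas2 and Aurkb. Kif1b encodes a kinesin motor that carries mitochondria and vesicles along microtubules. It was at 3.83, 3.75 and 3.41 at 1 week and at 2.59, 2.27 and 2.45 at 4 weeks. The nearest arrays of the 2 times were 0.83 apart. It differed by -1.23 ± 0.20, with the smallest p of all genes (limma adjusted p = 0.0875), and its other probes differed by -1.02 to -0.70. Tob1, an antiproliferative factor of quiescent T cells, was at -2.11, -2.30 and -2.50 at 1 week and at -3.13, -3.39 and -3.63 at 4 weeks (difference -1.08 ± 0.21, limma adjusted p = 0.101). Rcor1, a subunit of the CoREST repressor complex, differed by -1.05 ± 0.23 (limma adjusted p = 0.11). Aurkb, a mitotic kinase, was near background with levels of -6.42 to -3.53, and its difference of -1.41 ± 0.58 shrank to -0.32 with another background correction. Under a looser threshold of 0.1, 13 of the 18 autosomal genes were lower, and all 13 had non-overlapping times. All 13 lay between -1.23 and -0.66. They include E2f2, a cell cycle factor that restrains T cell proliferation (-0.96 ± 0.18), Mlst8, a subunit of the mTOR complexes (-0.68 ± 0.13), and Tpcn1, an endolysosomal cation channel (-0.88 ± 0.16). E2f2, Mlst8 and Tpcn1 were singled out after their values were seen.

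Rab6b had the largest difference among the 12 higher genes that the naming rule took. It encodes a Rab GTPase of Golgi transport and was at -1.76, -1.99 and -2.17 at 1 week and at 0.05, 0.40 and 0.45 at 4 weeks. The groups were 1.81 apart at their nearest arrays. The difference was 2.28 ± 0.43, a 4.84-fold higher signal (limma adjusted p = 0.0895), a second probe gave 2.46, and LAT KO mice differed by 1.85 between the same times. Rab6b passed in a model of the 6 WT arrays alone (limma adjusted p = 0.0339). The other 11 genes named by the same rule were higher by 1.09 to 1.75, with limma adjusted p from 0.11 to 0.126. They fall into 2 kinds by brightness. Slc35e4, the kinase gene Nim1k, the olfactory receptor gene Olfr1134, Nppa (a natriuretic peptide), Ephx2 (soluble epoxide hydrolase) and Cdh13 (T-cadherin) had mean levels of -1.41 to 1.08. Mtus1, a microtubule-associated protein, Cpne5, a calcium-binding copine, Clstn3, a calsyntenin, and Eva1b and Fam171a2 were among the brightest. In all 11 genes replicate 1 of 1 week was the lowest array. Mtus1 was at 4.08, 6.12 and 4.82 at 1 week and at 6.33, 6.58 and 7.22 at 4 weeks, so the nearest arrays of the 2 times were 0.22 apart, and its other probes differed by -0.11 to 0.60. Probes also disagreed for Nim1k, whose others were between -0.14 and -0.05, and for Eva1b, whose second probe gave 0.16, while those of Cpne5 gave 0.49 and 0.77. After quantile normalization the differences of Eva1b and Fam171a2 were 0.47 and 0.38 against larger values as reported, that of Clstn3 was 0.88 in place of 1.35 and that of Mtus1 was 1.07 in place of 1.71. Of the 131 autosomal genes that the naming rule took, 54 have several probes, and 15 of these have at least 1 probe of opposite sign.

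**Figure D3:**
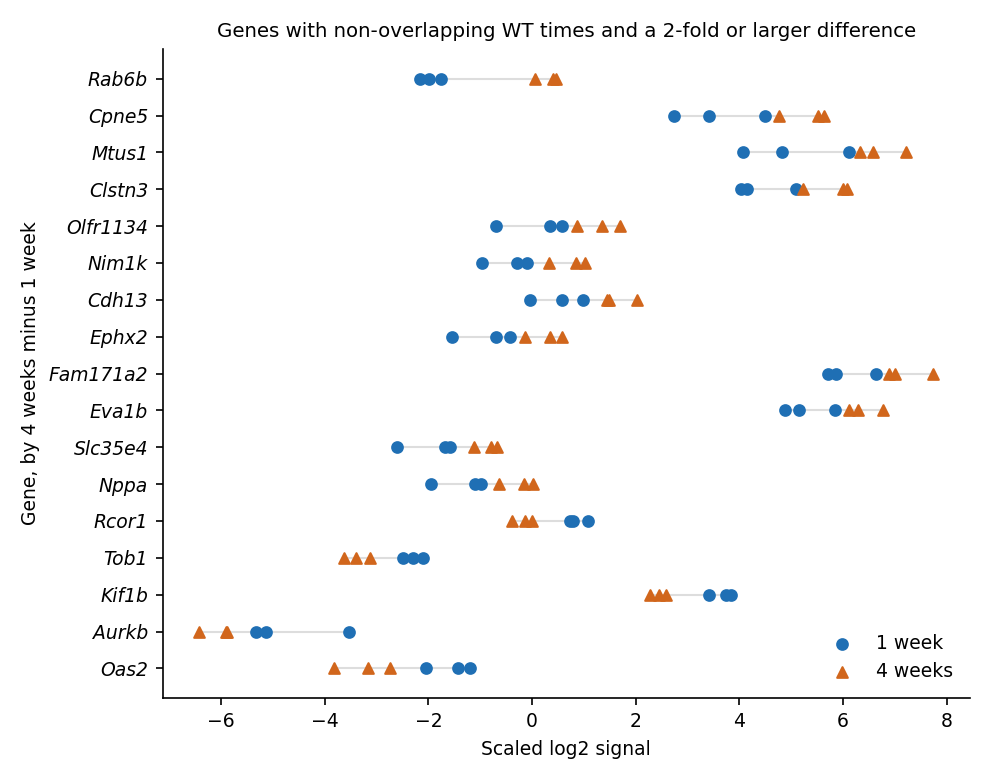
Scaled log2 signal on each WT array of the 17 autosomal genes that the naming rule took: circles are 1 week and triangles 4 weeks, 3 arrays each. Rab6b (about -2 against 0.05 to 0.45) and Kif1b (3.41 to 3.83 against 2.27 to 2.59) show the widest gaps relative to their spread, while for Mtus1 the nearest arrays of the times are 0.22 apart.

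Interferon response genes mostly had negative differences at 4 weeks. Of the 44 tested, 0 passed the threshold and 38 had a negative difference, against 33.5% of autosomal genes. The median was -0.29, against 0.205 over all autosomal genes. The list is bright, with a mean level of 1.56, and measured from the median of each gene's own brightness bin the list median was -0.28. For 7 of the 43 measured on all 6 arrays every 4-week array lay below every 1-week array, and for 0 above. Over all autosomal genes 10.1% were below and 8.81% above on all arrays. In the 2 brightest bins 16.9% and 15.8% were below, so 7 of 43 is near the share of bright genes. The list median relative to all genes stayed negative in all 26 settings, from -0.67 to -0.28, including male mice alone, where it was -0.59. The settings reuse the same WT arrays. The cholesterol, naive, gamma-chain, glucocorticoid, oestrogen and upstream interferon lists described below were also negative in all 26. Arrays differed within each time, and the mean level of the list was 1.42 to 1.99 at 1 week and 0.98 to 1.74 at 4 weeks, so the groups overlapped. Replicate 3 of 4 weeks was lowest and replicate 3 of 1 week highest.

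Oas2, an oligoadenylate synthetase that senses viral RNA, was at -2.05, -1.43 and -1.19 at 1 week and at -2.75, -3.16 and -3.83 at 4 weeks. The times did not overlap. The difference was -1.69 ± 0.39 (limma adjusted p = 0.11), and a second probe gave -1.26. Helz2, an interferon-induced helicase, was at 0.86, 0.97 and 1.19 at 1 week and at 0.32, 0.36 and -0.22 at 4 weeks (-0.85 ± 0.19, limma adjusted p = 0.11). Ddx58, the gene of the RNA sensor RIG-I, differed by -0.59 ± 0.19, with its 3 other probes at -0.55 to -0.45, and Stat2, which carries the type I interferon signal to the nucleus, by -0.67 ± 0.23. In male mice alone the Stat2 difference was -1.19. Usp18, which dampens the interferon receptor and removes ISG15 from proteins, was at 1.88, 2.19 and 2.26 and then at 1.86, 1.53 and 1.05 (-0.63 ± 0.25). Here the nearest arrays of the times were 0.02 apart. The Oas2 difference was -0.18 in LAT KO mice and -2.27 in Y136F mice over the same weeks. Upstream of these genes, 19 receptors, sensors and regulators had a median of -0.02, with 4 lower and 2 higher on all arrays. Among autosomal genes 10.1% were lower and 8.81% higher. Irf2 (-0.52 ± 0.20) and Irf3 (-0.33 ± 0.14), both transcription factors of the pathway, were lower on all 4-week arrays, and were at -0.87 and -0.21 in male mice alone. Irf8, which also marks B and dendritic cells, was higher on all of them (0.60 ± 0.28).

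The interferon-stimulated response element is the DNA site through which type I interferon signals act on these genes, and its letters were sought as a pair of GAAA repeats with any 2 bases (NN) between them, on both strands. Promoter windows from 250 bases before to 50 after the start came from RefSeq (GRCm38.p6) and covered 32 of the 44 genes. A match was found for 19 of the 32 (59.4%) and for 1034 of 25748 autosomal genes with a window (4.02%). The list was drawn up as interferon response genes, so this share describes its membership and not the difference between the times. Windows of 3 genes with a negative difference are shown because they place the match differently; capitals mark it, and it appears as a pair of TTTC repeats because it lies on the opposite strand in all 3. The Stat2 window is chr10:128270248-128270547 on the plus strand, the Rsad2 window chr12:26456403-26456702 on the minus strand, and the Ddx58 window chr4:40239776-40240075 on the minus strand.
Stat2: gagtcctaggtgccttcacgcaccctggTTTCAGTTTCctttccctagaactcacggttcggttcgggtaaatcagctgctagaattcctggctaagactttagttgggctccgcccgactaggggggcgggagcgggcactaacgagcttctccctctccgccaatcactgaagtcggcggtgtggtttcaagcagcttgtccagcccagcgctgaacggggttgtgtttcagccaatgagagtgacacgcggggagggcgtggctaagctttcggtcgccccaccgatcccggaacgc
Rsad2: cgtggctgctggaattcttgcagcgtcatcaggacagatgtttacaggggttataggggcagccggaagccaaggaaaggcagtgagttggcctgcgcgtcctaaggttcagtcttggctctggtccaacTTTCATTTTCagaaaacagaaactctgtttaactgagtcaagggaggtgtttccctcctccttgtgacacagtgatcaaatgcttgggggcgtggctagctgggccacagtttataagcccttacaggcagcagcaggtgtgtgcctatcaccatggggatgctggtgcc
Ddx58: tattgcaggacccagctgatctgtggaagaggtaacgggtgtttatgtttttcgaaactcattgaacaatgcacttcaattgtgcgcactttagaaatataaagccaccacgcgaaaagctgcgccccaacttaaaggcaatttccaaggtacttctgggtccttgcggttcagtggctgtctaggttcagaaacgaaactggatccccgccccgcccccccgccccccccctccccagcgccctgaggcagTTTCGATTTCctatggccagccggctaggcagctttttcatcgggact
The match begins -222 bases from the start in Stat2, at -120 in Rsad2 and 2 bases after it in Ddx58. Rsad2, which encodes the antiviral enzyme viperin, differed by -0.80 ± 0.37 with overlapping times. A match is a description of letters and not a measured binding site. Among list members lower on all 4-week arrays, 4 had a window and 2 of these a match. Helz2 and Irf9, both with non-overlapping times, had none.

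**Figure D4:**
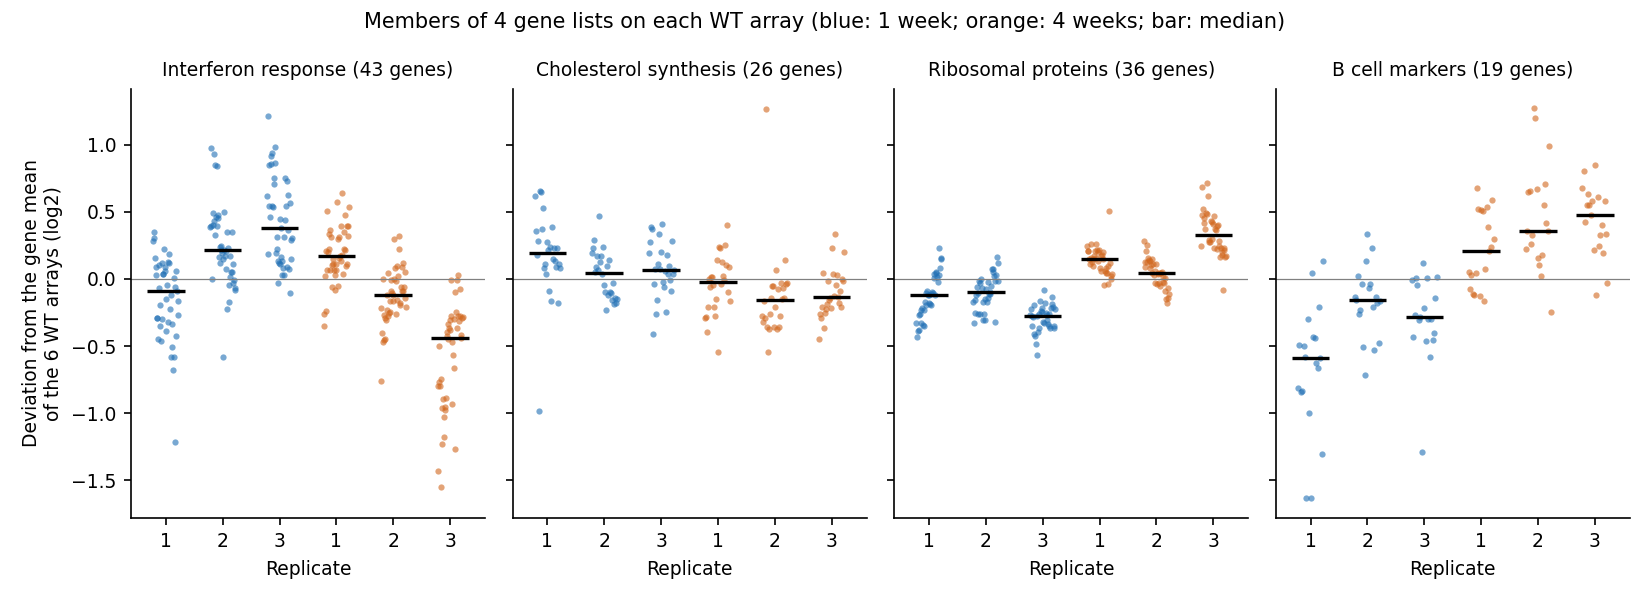
Deviation (log2) of each list member from its mean over the 6 WT arrays, by replicate; blue points are 1 week, orange points 4 weeks, and bars are medians. Interferon genes are lowest in replicate 3 of 4 weeks, and cholesterol medians are lower and ribosomal and B cell medians higher on the 4-week arrays.

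Components of TCR signalling differed little as a list. Of 32 genes of the TCR complex and its proximal signalling, 0 passed, 7 were below and 2 above on all arrays, where 10.1% and 8.81% of autosomal genes were. The median was -0.09, or -0.08 from the median of each gene's brightness bin, and the mean level of the list overlapped between the times. Pag1, the raft adaptor that brings the inhibitory kinase Csk to the membrane, was at 1.49, 1.31 and 1.13 at 1 week and at 0.37, 0.68 and 0.47 at 4 weeks (-0.80 ± 0.18, limma adjusted p = 0.11). Its times did not overlap and its second probe gave -0.78. Plcg1, the phospholipase that LAT recruits, differed by -0.50 ± 0.21, and the kinase gene Prkcq by -0.40 ± 0.15. Cd4 (0.36 ± 0.15) and Cd3g (0.26 ± 0.12) were higher on all 4-week arrays, but Cd3g was at -0.18 after quantile normalization and -0.15 in the authors' value table. Cd4 kept its sign in both.

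Among 33 immediate and early TCR target genes, 0 passed and the median was -0.01, with 6 lower and 2 higher on all arrays. By that measure 10.1% of autosomal genes were lower and 8.81% higher. Besides Nr4a1, the MAP kinase phosphatase gene Dusp2 was at 3.77, 3.81 and 3.17 and then at 3.01, 2.72 and 3.0 (-0.67 ± 0.18, limma adjusted p = 0.132). Dusp2 differed by -0.26 in male mice alone. Zfp36, which directs decay of cytokine mRNAs, differed by -0.72 ± 0.27, with replicate 3 of 4 weeks at 1.93 and the other 4-week arrays at 3.30 and 3.28. Junb, an AP-1 subunit, was at 6.25, 7.17 and 6.43 and then at 7.26, 7.47 and 8.11, a difference of 1.00 ± 0.29 that was 0.29 after quantile normalization. Its second probe differed by -0.01. Nfkbid, a nuclear regulator of NF-kB, differed by 0.50 ± 0.16, and Egr1, a zinc finger factor that reports recent TCR signals, by -0.27 ± 0.27 with overlapping times. The list had 16 positive and 17 negative differences.

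Genes of the naive programme showed small and scattered differences. Of 29, 0 passed, and their median was -0.07. On all 4-week arrays 6 were lower and 3 higher, against 10.1% and 8.81% of autosomal genes. The mean level of the list was 2.58 to 2.61 at 1 week and 2.51 to 2.57 at 4 weeks, a narrow gap between the times. Satb1, a chromatin organiser of T cells, differed by -0.45 ± 0.17 (-0.69 after quantile normalization) and Lef1, a Wnt pathway factor of naive cells, by -0.38 ± 0.20. Klf2, which keeps the homing receptors of naive cells expressed, was at 4.12, 4.68 and 4.10 and then at 4.87, 5.06 and 5.75 (0.93 ± 0.25, limma adjusted p = 0.131). It differed by 0.53 after quantile normalization, and its second probe by -0.39. The survival gene Bcl2 differed by 0.89 ± 0.28 with overlapping times, by 0.26 after quantile normalization and by -0.74 with its second probe, and Il7r, the interleukin 7 receptor chain, by 0.43 ± 0.23, by 0.20 in male mice alone and by -0.29 with its second probe. For Klf2, Bcl2 and Il7r, the probes of the gene did not share a sign.

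Memory and effector genes had mostly positive differences, with 0 of 41 past the threshold, 32 positive, 10 of 40 higher and 0 lower on all arrays, and a median of 0.24. Of all autosomal genes 66.5% were positive, 8.81% higher and 10.1% lower on all arrays. Relative to all genes the median was 0.03, and it was negative in 4 of 26 settings. From the median of each gene's brightness bin it was 0.13. Lgals1, the secreted lectin galectin 1, was at 3.88, 4.97 and 4.11 at 1 week and at 5.06, 5.23 and 5.58 at 4 weeks (0.97 ± 0.26, limma adjusted p = 0.128), and differed by 0.59 after quantile normalization. Prf1, the pore-forming protein of cytotoxic cells, was at -0.34, -0.48 and -0.16 and then at 0.05, 0.04 and 0.03 (0.37 ± 0.13), and differed by 0.20 in male mice alone. The killer cell receptor gene Klrg1 was at -1.92, -1.15 and -2.08 and then at -0.01, -1.08 and -0.85 (1.07 ± 0.53, limma adjusted p = 0.267). Tbx21, the T-bet factor of type 1 effector cells, differed by 1.32 ± 0.36, and 1 of its 4-week arrays lay below a 1-week array. NK cell markers, several of which effector cells share, had a median of 0.35, as given further on.

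Other T cell states showed little shared direction. The counts on all arrays stand beside 8.81% higher and 10.1% lower among autosomal genes. Regulatory T cell genes had a median of 0.12, with 3 higher and 1 lower on all arrays among 18 measured on all 6. Ikzf4, the Eos factor, was the lower one (-0.48 ± 0.21; other probes -0.19 and 0.08), at -0.19 in male mice alone. Among 20 anergy and inhibitory receptor genes the median was 0.02, and Ikzf1, which encodes Ikaros and silences cytokine genes, was at 3.34, 2.96 and 2.85 and then at 2.53, 2.55 and 2.14 (-0.64 ± 0.20, limma adjusted p = 0.155). Th2 genes, which were mostly dim, had a median of 0.37 with 1 of 15 higher on all arrays, and Gata3, the factor that specifies Th2 cells, differed by -0.38 ± 0.20 and by -0.62 in male mice alone. Of 22 genes of gamma-chain cytokine signalling, 6 were lower and 1 higher on all arrays, with a median of -0.07. These include the shared-receptor kinase gene Jak3 (-0.40 ± 0.15; other probes -0.06 and 0.11), Cish, a STAT5-induced inhibitor (-0.52 ± 0.24), and cyclin D2, Ccnd2 (-0.34 ± 0.17), which was at -0.58 after quantile normalization. Of 22 genes of recombination and recent thymic emigrants, 6 were higher and 2 lower on all arrays, against 8.81% and 10.1% of autosomal genes. Dntt, which adds untemplated bases during TCR rearrangement, was at 2.54, 2.51 and 2.19 and then at 2.80, 2.96 and 2.86 (0.46 ± 0.17), and Rmnd5a differed by -0.53 ± 0.16.

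Proliferation genes had no common direction beyond that of all genes: of 45, 0 passed, 33 were positive, 10 were higher and 5 lower on all arrays, and the median of 0.20 was close to that of all genes. Among autosomal genes 8.81% were higher and 10.1% lower on all arrays. Cdt1, which licenses replication origins, had the tightest values, at 0.99, 0.92 and 1.03 and then at 0.18, 0.32 and 0.37 (-0.69 ± 0.14, limma adjusted p = 0.11). Kif23, a motor of cell division, differed by -0.72 ± 0.25 and by -0.27 in male mice alone. Uhrf1, which maintains DNA methylation after replication, differed by 0.60 ± 0.20.

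Cholesterol and fatty acid synthesis genes mostly had negative differences. Of 27 measured, 0 passed, 20 were negative and 9 of 26 were lower on all 4-week arrays, with 1 higher. Of autosomal genes 33.5% were negative, 10.1% lower and 8.81% higher on all arrays. In the brightness bin that holds the list's mean level of -0.02, 16.9% were lower. The median was -0.18, and from the median of each gene's brightness bin it was -0.33. Relative to all genes it was -0.39 as reported and -0.25 in the authors' value table, where the shift of all genes was smallest. The mean level of the list did not overlap, at 0.01 to 0.16 at 1 week and -0.15 to -0.06 at 4 weeks. Srebf2, the transcription factor that induces the pathway, was at 0.76, 0.63 and 0.68 and then at 0.12, 0.08 and 0.14 (-0.57 ± 0.14, limma adjusted p = 0.121), and differed by -0.32 with another background correction. It was below on every 4-week array. Fasn, fatty acid synthase, differed by -0.57 ± 0.15. Insig1, which retains the sterol sensor in the endoplasmic reticulum, and the synthesis enzyme gene Hmgcs1 each differed by -0.52 (SE 0.20 and 0.21), which was -0.22 and -0.34 in male mice alone, and Dhcr7, of the last step of synthesis, by -0.47 ± 0.17. The list median was -0.01 in LAT KO and 0.12 in Y136F mice.

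Ribosomal protein genes all had positive differences, 38 of 38, and 25 of 36 were higher on all 4-week arrays, with a median of 0.34, but under quantile normalization and in the authors' value table the median was -0.14 and -0.17. Rpl8 differed by 0.66 ± 0.20, and by -0.064 and -0.020 under those 2 scalings. These genes are among the brightest, with a mean level of 5.24, so their direction is not settled by these arrays. Genes of oxidative phosphorylation had a median of 0.11 with 7 of 34 higher and 0 lower on all arrays, and genes of glycolysis and nutrient uptake a median of 0.09 with 2 higher and 1 lower. The counts of these 3 lists stand beside 8.81% higher and 10.1% lower among autosomal genes. In the brightest bin the shares were 13.8% and 15.8%.

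Hormone and clock genes showed few shared differences, while 8 of 20 heat shock genes were higher on all 4-week arrays. Of 23 oestrogen receptor and oestrogen-responsive genes 0 passed, 4 were lower and 0 higher on all arrays, and the median was 0.13. The 4 were Trim25, which activates RIG-I (-0.70 ± 0.19), the retinoic acid receptor gene Rara (-0.63 ± 0.18), the corepressor gene Ncor1 (-0.43 ± 0.15) and the coactivator gene Ncoa2 (-0.38 ± 0.14). Glucocorticoid response genes had a median of -0.10 with 2 higher and 3 lower among 17, and circadian genes a median of 0.08 with 1 higher and 2 lower among 19. Per1, which is in both of these lists, was at 0.95, 0.94 and 1.00 and then at 0.17, 0.49 and 0.54 (-0.57 ± 0.20, limma adjusted p = 0.181). Its partner in the clock, Cry1, differed by -0.54 ± 0.14 (limma adjusted p = 0.126), and both were lower on every 4-week array. Heat shock genes had a median of 0.23 with 8 of 20 higher and 1 lower, against 8.81% and 10.1% of autosomal genes. In the brightest bin, which holds the list's mean level of 1.90, 13.8% were higher and 15.8% lower. The mean level of the heat shock list was 1.66 to 1.90 at 1 week and 1.93 to 2.15 at 4 weeks. The list median was 0.06 after quantile normalization and 0.0083 in the authors' value table. The chaperone cofactor gene Chordc1 differed by 0.67 ± 0.26, or 0.36 in male mice alone, and Hsp90ab1, a cytosolic chaperone, by 0.64 ± 0.20, which was -0.04 after quantile normalization and -0.13 by its second probe. Genes of the unfolded protein response had a median of 0.12, with Edem1, of glycoprotein disposal, lower on all arrays (-0.60 ± 0.15, limma adjusted p = 0.124, other probes -0.45 and 0.03) and 3 others higher. The mean level of this list was 0.89 to 0.93 at 1 week and 0.99 to 1.08 at 4 weeks. The p53 targets had a median of 0.05 with 3 higher and 3 lower of 20. Fas, the death receptor, differed by 0.87 ± 0.22, Sesn2, a stress sensor upstream of mTOR, by 0.82 ± 0.26 and Zmat3 by -0.49 ± 0.16.

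Markers of B cells had positive differences at 4 weeks. All 19 measured autosomal markers had a positive difference, against 66.5% of autosomal genes, and 18 had one in male mice alone. On all arrays 11 were above and 0 below, against 8.81% and 10.1% of autosomal genes, and the median was 0.72. None passed the threshold. Relative to all genes the list median was positive in all 26 settings, with 0.51 as reported, 0.42 without replicate 1 of 1 week and 0.20 with slide as a fixed term. From the median of each gene's brightness bin it was 0.48. The summed signal of the list, on the log2 scale, was 3.60 to 3.75 at 1 week and 4.24 to 4.43 at 4 weeks, so the times did not overlap. Ms4a1, which encodes CD20, was at -5.03, -3.91 and -3.69 and then at -2.73, -2.14 and -2.93 (1.61 ± 0.75). Cd22, an inhibitory receptor of B cells, was at -0.40, -0.81 and -1.38 and then at 0.43, 1.11 and 0.48 (1.53 ± 0.80). H2-Ab1, a class II chain of all antigen-presenting cells, was at 0.95, 1.08 and 1.31 and then at 2.0, 2.32 and 2.01 (0.99 ± 0.63). For these 3 genes every 4-week array was above every 1-week array, although the SE of the shared model was wide. With slide as a fixed term Ms4a1 differed by 0.53, Cd22 by 0.54 and H2-Ab1 by 0.08. Pax5, the B lineage factor, differed by 0.64 ± 0.22, or 0.33 in male mice alone, and the complement receptor gene Cr2 by 0.73 ± 0.30. All but 1 of the 19 markers were well above background on all 6 arrays. In bulk RNA, more cells of a type and more RNA per cell cannot be told apart, and the part of B cell RNA in the other lists was not tested.

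Markers of other cell types had smaller medians, and several are dim genes. Their counts on all arrays stand beside 8.81% higher and 10.1% lower among autosomal genes. Myeloid and dendritic markers had a median of 0.40, with 6 of 22 higher and 0 lower on all arrays. Their summed signal was 5.86 to 6.15 at 1 week and 5.99 to 6.23 at 4 weeks. Adgre1, a surface receptor of macrophages, differed by 1.01 ± 0.35, or 0.61 without replicate 1 of 1 week, and Ctss, a protease of antigen-presenting cells, by 0.41 ± 0.14 but by -0.0087 in the authors' value table. NK cell markers had a median of 0.35 with 5 of 18 higher and 0 lower, and a summed signal of 5.30 to 5.66 and then 5.45 to 5.73. Klra8, an inhibitory NK receptor, differed by 0.55 ± 0.20. CD8 T cell markers (median 0.17), plasma cell markers (0.17), erythroid markers (0.44) and platelet markers (0.39) had 1, 1, 0 and 4 genes above on all arrays. From the median of each gene's brightness bin, these 4 list medians were 0.11, -0.01, 0.02 and 0.05. Measured that way, the myeloid and NK medians were 0.11 each. Of the platelet markers, Itgb3, an integrin chain that activated T cells also carry, was lower on all 4-week arrays, at 2.47, 2.21 and 2.30 and then at 1.86, 1.72 and 1.82 (-0.52 ± 0.16, limma adjusted p = 0.147). The summed signals of myeloid, NK, CD8, plasma cell, erythroid and platelet markers overlapped between the times. Mean levels, which weight dim genes more, did not overlap for NK markers (-1.76 to -1.23 and then -1.10 to -1.07) and plasma cell markers (-1.37 to -1.15 and then -1.11 to -0.98).

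The same weeks were also measured in the mutants, whose arrays are not shared with the WT mice. By label, all Y136F mice were female. In LAT KO, replicates 1 and 2 of 1 week were labelled female, and replicate 3 and all 4-week mice male. Sex-linked genes went against the label on 1 LAT KO array of each time, as given further on. In LAT KO mice 0 of 31519 were called between the times (limma; 182 at an unadjusted p under 0.05, 0.577%). In Y136F mice 1329 rose (4.22%) and 1085 fell (3.44%), 7.66% in all and 8.58% of named autosomal genes. At an unadjusted p under 0.05 the count was 6107 in WT and 7700 (24.4%) in Y136F mice. Across autosomal genes the WT differences had a correlation of 0.293 with those of LAT KO and 0.556 with those of Y136F mice, and 0.322 with Y136F when the slide that holds the dim WT array and a dim Y136F array was left out. Genes are not independent replicates, and these values are descriptions. The WT interferon median of -0.29 compares with -0.07 for LAT KO and with -0.64 for Y136F mice, in which 20 of the 44 genes fell.

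**Figure D5:**
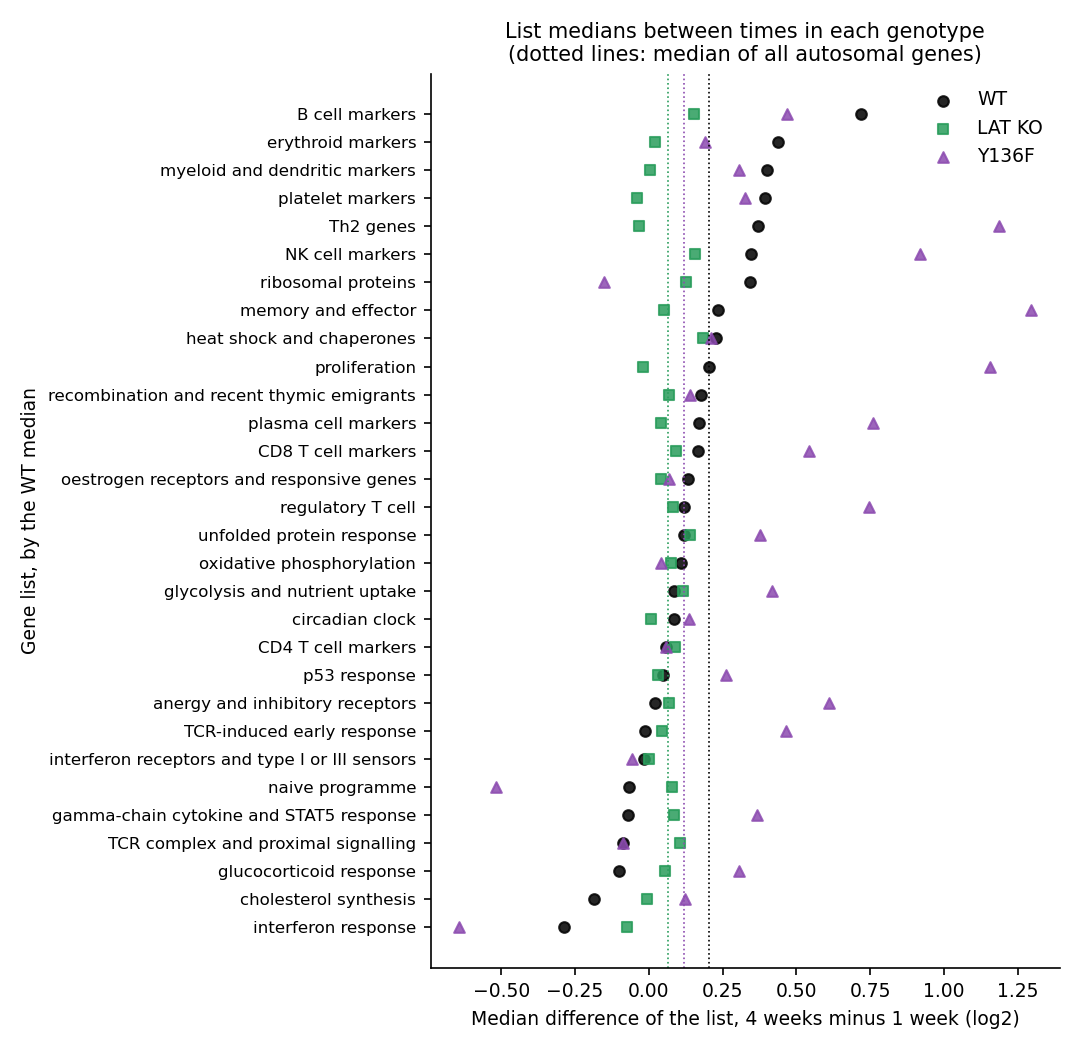
Median difference between times (log2, 4 weeks minus 1 week) of each gene list in WT, LAT KO and Y136F mice, 3 arrays per time and genotype; dotted lines mark the median of all autosomal genes in each genotype. WT medians run from -0.29 (interferon response) to 0.72 (B cell markers), and the memory, Th2 and proliferation lists lie between 1.16 and 1.30 in Y136F mice.

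Tested as the difference of differences, 0 genes separated the WT change from the LAT KO change (limma; 1614 at an unadjusted p under 0.05, 5.12%). Against Y136F, 164 of 31522 passed (0.52%), 40 with a higher (0.127%) and 124 with a lower value in WT (0.393%), and 117 were named autosomal genes (0.714%). At an unadjusted p under 0.05 the share was 8.71%. Of these 117, 111 were also called in Y136F mice themselves and 0 in WT mice, with a median size of 1.52 in Y136F and 0.30 in WT mice. The count rests on single arrays: it was 78 without replicate 2 and 79 without replicate 3 of 4 weeks, and 92 without replicate 2 and 91 without replicate 3 of 1 week. By label the Y136F mice were all female at both times, while the WT mice were mostly female at 1 week and all male at 4 weeks. This contrast therefore carries a change of sex in the WT mice only. With sex as a term the count was 50. Gata3 differed between the genotypes by -1.94 ± 0.28 (limma adjusted p = 0.00409), with -0.38 in WT and 1.56 in Y136F mice. Itgb3 differed by -1.52 ± 0.22 (limma adjusted p = 0.0046), with -0.52 in WT and 0.99 in Y136F mice. Dntt went the other way, by 1.40 ± 0.24 (limma adjusted p = 0.011), with 0.46 in WT and -0.94 in Y136F mice. These 3 genes passed in all 12 alternatives. Prf1 (1.13, adjusted p = 0.0105 in limma) passed in 10 of 12, Cish (-1.74, 0.0267) in 6, and Nr4a1 (-1.11, 0.0267) and Cdt1 (-0.99, 0.0362) in 4. The LAT KO and Y136F arrays enter these tests by their labels, and sex-linked genes went against the label in 2 LAT KO arrays, 1 of each time. Replicate 1 of 1 week, labelled female, had Xist at -9.30 and Ddx3y at -0.23. Replicate 2 of 4 weeks, labelled male, had Xist at 0.21 and Ddx3y at -8.92. Whether these 2 arrays belong to the times on their labels was not tested, and all LAT KO values between the times rest on those labels.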

How the data were processed

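Naive CD44low CD4+ T cells were measured on 18 Agilent Mouse GE 4x44k single-colour arrays. The series text gives 3 mice per genotype; each array was taken as 1 mouse because spleens were used at each time, and no label names the animals, so p-values measure the spread between these samples. Per the file headers, the authors deposited Agilent Feature Extraction 10.5.1.1 output, whose processed intensity is background-subtracted spot brightness; the labels give version 10.5. The authors also deposited a table of log2 values, with a median between 8.56 and 8.57 on each WT array, whose order followed the median spot signal; its exact normalization is not given in the sources used here, and limma is named in the submitters' processing notes. The share of spots well above background comes from the deposited flags. The mean spot signal was not used here, so normexp background correction used the median signal.

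From the processed intensity, log2 was taken and each array's 75th percentile over 43379 non-control spots subtracted; that percentile was 1124 to 1896 over the 18 arrays. Outlier spots were left out, spots of a probe averaged, and probes named by RefSeq accession (GRCm38.p6): 24836 of 41174 probes, for 17174 genes. The brightest probe stood for its gene. Genes well above background on at least 3 of 18 arrays were fitted with limma 3.58.1 (R 4.3.3, statmod 1.5.0), 1 mean per group, eBayes with trend, 12 residual degrees of freedom, two-sided, Benjamini-Hochberg, threshold 0.05. A gene was counted as above or below on all arrays when it was measured on all 6 and the times did not overlap. The small number of arrays limits the precision. The fit was tested on simulated data.

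Genes were named by this rule: Lat, Nr4a1 and Irf4; called genes with non-overlapping times; up to 12 per direction of uncalled ones with a difference of at least 1, by smallest p; up to 4 members of each list by smallest p; and sex-linked genes. E2f2, Mlst8, Tpcn1, Usp18, Rsad2, Klrg1, Ms4a1, Cd22, H2-Ab1, Egr1, Zfp36, Insig1, Hmgcs1, Lef1, Olfr164, Ahrr and Arntl2 were named after their values were seen. The comparison and the 30 gene lists were chosen with earlier results of these data known. Alternatives changed the arrays, sex, slide, replicate number, background correction, normalization, filter, probe rule, array weights and the arrays left out.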

Additional observations from a re-analysis of the deposited data

Results flagged for a closer look

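The change between times differed between WT and Y136F mice for 164 of 31522 genes and unnamed sequences by the test of the difference itself (limma, adjusted p under 0.05). Of the genes named above, 7 are among them. Nr4a1 differed by -1.11, Gata3 by -1.94, Cish by -1.74, Cdt1 by -0.99 and Itgb3 by -1.52, all lower in the WT change. Prf1 differed by 1.13 and Dntt by 1.40, both higher in the WT change. None of the 7 passed the threshold in WT mice alone.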

How the results depend on the processing

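The count of genes past the threshold between the times stayed at 0 in the other alternatives, leaving out any 1 array included (0 to 0), but was 3 with the 6 WT arrays alone, 4 in male mice (1 against 3, the lone array being assumed to vary like the others), 1035 with array weights and 4 with each array's share of detected spots as a covariate, all 4 of them measured on 2 arrays. Olfr164 and Rab6b passed in the first of these, and Rab6b, Ahrr and Arntl2 in male mice. For the WT change minus the LAT KO change, leaving out 1 array gave 0 to 1, the 1 without replicate 1 of 1 week. For the WT change minus the Y136F change the count was 50 with sex as a term, 79 without the slide of the dim arrays (chosen after seeing the data) and 78 to 161 leaving out 1 array. Deviations of same-numbered WT replicates from their group means had correlations of 0.55, -0.03 and 0.01. Centring on 3 arrays fixes part of such values, so they cannot settle whether the numbers pair the mice. With the replicate block the counts were 0 for WT, 0 against LAT KO and 162 against Y136F.

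Signs turned for 7 genes. Irf4 was at -0.11 with sex as a term. After quantile normalization Hsp90ab1 was at -0.040, Rpl8 at -0.064 and Cd3g at -0.18. In the authors' value table Rpl8 was at -0.020, Cd3g at -0.15 and Ctss at -0.0087. With slide as a fixed term Ahrr was at 0.0064 and Arntl2 at 0.038. Leaving out 1 array, Ahrr ranged from -2.12 to 0.38 and Arntl2 from -2.21 to 0.81. The cause was not tested. Of the 92 genes read across settings, the difference moved by over 1.5 times or turned for 2 with normexp, 17 after quantile normalization, 19 in the authors' value table, 18 in male mice, 7 with array weights and 9 without replicate 1 of 1 week.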

Other observations

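Replicate 3 of 1 week held high levels of a pair of genes that were dim on the other WT arrays. Ahrr, the repressor of the aryl hydrocarbon receptor, was at -0.32 there and between -5.46 and -4.08 on the other 5. Arntl2, a paralog of the clock factor BMAL1, was at 0.21 there and between -5.82 and -4.06 on the others. This is the male mouse of 1 week whose Xist level was -3.98. Both genes passed in male mice alone, where this is the only 1-week array.

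Olfr164, an olfactory receptor gene, was at -2.46, -2.34 and -2.51 at 1 week and at -0.59, -0.42 and -0.45 at 4 weeks. The times did not overlap, the difference was 1.95 ± 0.53 (limma adjusted p = 0.132), and it was 0.47 in LAT KO and 0.90 in Y136F mice. Vomeronasal receptor genes, also chosen after the data were seen, had a positive difference in 126 of 126 cases, with a median of 0.89. Of autosomal genes 66.5% were positive. Above on all arrays were 9 of 125, where 8.81% of autosomal genes and 7.96% of the dimmest bin were. Their mean level was -3.28, and the median difference was 0.59 and 0.36 in the 2 dimmest bins.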
